A study of Homo sapiens with 6 samples.

Results

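Aminoacyl-tRNA synthetases attach each amino acid to its transfer RNA (tRNA), the step that supplies translation with its building blocks. Human cells keep one set of these enzymes in the cytosol and another, encoded by separate nuclear genes, that is imported into mitochondria to charge the mitochondrial tRNAs. Several cytosolic synthetases are held together with the scaffold proteins AIMP1 and AIMP2 in a multi-synthetase complex, and XPOT exports mature tRNAs from the nucleus. Many cytosolic synthetase genes are known targets of ATF4, the transcription factor of the amino acid response. The genes described here are 19 cytosolic synthetase genes, 16 mitochondrial synthetase genes (names that end in 2) and AIMP1, AIMP2 and XPOT, chosen by symbol: 38 of the 17269 genes measured.

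HCT116, a long-established line from a human colorectal carcinoma, was studied with a control hairpin (shCtrl, genotype labelled WT) and after a hairpin against PRSS22, a serine protease gene (shPRSS22). All cells were grown in RPMI1640 with serum. Poly(A)-selected RNA was sequenced in 3 libraries a group, with 14920523 to 15466647 counts each. The labels do not state how long the hairpin had been expressed, which sequence it has or whether each line is 1 clone. They also leave unsaid if the replicates came from different cultures, so the p-values reflect library-to-library spread, which may be technical.

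In CPM (counts scaled by the TMM-adjusted library total), and always in the order of replicates 1 to 3, PRSS22 stood at 10.1, 9.38 and 10.1 for shCtrl and at 3.09, 3.16 and 2.61 for shPRSS22. It was lower in each library labelled shPRSS22 than in any control library (log2 fold change -1.74, SE 0.135, adjusted p = 4.78e-12). For the cell type markers CPM was scaled by the plain library total. The epithelial markers EPCAM, CDH1, KRT8, KRT18 and KRT19 each exceeded 10 CPM in both groups. CDX2 lay just below, at 9.72 CPM in shCtrl and 9.92 CPM in shPRSS22, while VIL1 and LGALS4 had at most 23 and 15 counts in any library. The 12 markers of immune, endothelial and stromal cells summed to 39.5 to 48.7 CPM in shCtrl and 46.0 to 55.2 CPM in shPRSS22, mostly COL1A1 and CD68, and CDH5 had no count anywhere. Pairs of shPRSS22 libraries differed more (chi-square per gene 2.15 to 3.05) than pairs of shCtrl libraries (1.80 to 1.85).

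All 38 genes were expressed and passed the filter on low counts. Per unit of transcript length, cytosolic synthetase mRNAs were the more abundant set. Their mean TPM (length-scaled abundance, as deposited) in shCtrl ran from 75.0 for FARSA to 444.3 for SARS1, with a median of 199.7. Mitochondrial synthetase mRNAs ran from 4.96 TPM for AARS2 to 98.4 for IARS2, with a median of 15.8. IARS2 was the only mitochondrial gene within the cytosolic range. The counts behind these levels were 1042 to 14401 per library for the cytosolic genes and 80 to 3056 for the mitochondrial ones, and fold changes of the mitochondrial genes carried the larger standard errors (median 0.0727 against 0.0342 on the log2 scale).

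After PRSS22 knockdown the sets moved apart. Of the 19 cytosolic synthetase genes 11 were higher, 2 were lower and 6 did not pass the threshold, an adjusted p under 0.05 over all 13104 genes tested. Of the 16 mitochondrial synthetase genes 8 were lower, 0 were higher and 8 did not pass. Among all genes tested 19.9% were higher and 19.3% lower, 39.1% in all. The CPM of the groups did not overlap for 11 cytosolic genes in the higher and 3 in the lower direction, and for 0 and 8 mitochondrial genes, against 24.2% and 24.3% of all genes tested (48.6% in either direction). The changes were modest: the cytosolic genes that rose did so by 5.9% to 29.4%, and the mitochondrial genes that fell did so with a change of -11.4% to -21.3%. The median log2 fold change was 0.102 over the cytosolic set and -0.143 over the mitochondrial set, beside -0.0056 over all genes tested. Here and below, in RNA from bulk cultures, a change in the mix of cells and a change in RNA per cell cannot be told apart.

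**Figure D1:**
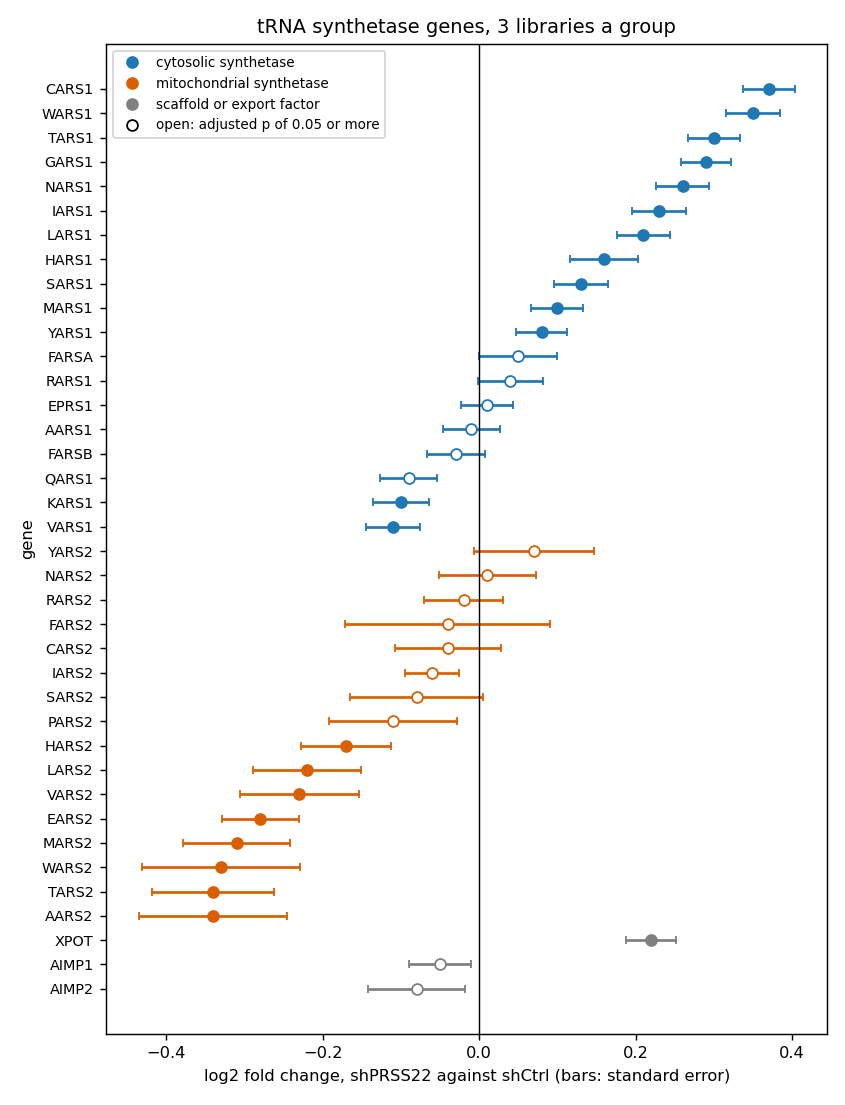
Log2 fold change (shPRSS22 against shCtrl, horizontal axis) of each of the 38 genes with its standard error, by set; filled points passed the threshold. The filled cytosolic points lie mostly right of 0, up to 0.37 for CARS1, and the filled mitochondrial points all lie left of 0, down to -0.34 for AARS2 and TARS2.

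The number of lower mitochondrial genes rests on the test. DESeq2 called 3 of them lower, EARS2, MARS2 and TARS2, and limma on log2(TPM + 1) called 6, against 8 in edgeR. The authors' deposited table lists 3 lower. At an unadjusted p under 0.05 all of these gave 8 lower and 0 higher. For the cytosolic genes DESeq2 called 11 higher and 1 lower. The authors' deposited table lists 10 higher and 0 lower, and it has 9.69% of its 16977 genes higher and 8.89% lower. No share of all genes was computed for DESeq2, for limma or for unadjusted p-values. Whether those counts exceed the share over all genes was therefore not tested.

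The separation was present in each library. Relative to a gene's mean over the 6 libraries, the cytosolic genes averaged -0.0546, -0.0681 and -0.0546 on the log2 CPM scale in shCtrl and 0.0583, 0.0604 and 0.0586 in shPRSS22. The mitochondrial genes averaged 0.0619, 0.0832 and 0.0892 in shCtrl and -0.0603, -0.0717 and -0.1023 in shPRSS22. No library of one group fell within the range of the other group for either set. Summed over genes, the cytosolic mRNAs exceeded the mitochondrial ones 11.53 to 11.63 times in shCtrl and 13.67 to 14.16 times in shPRSS22, on the TPM scale. These averages describe chosen genes and carry no test.

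**Figure D2:**
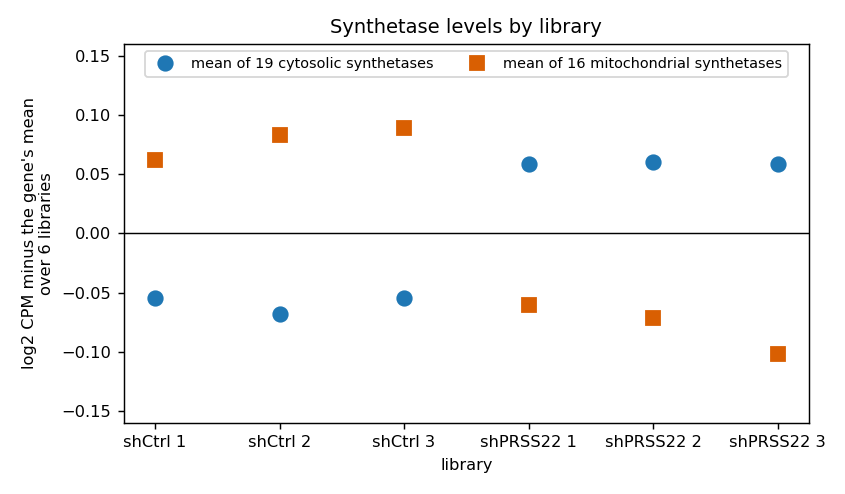
Mean log2 CPM of the cytosolic (circles) and mitochondrial (squares) synthetase genes in each of the 6 libraries, each gene taken relative to its own mean. The cytosolic means lie below 0 in the shCtrl libraries (-0.0681 at the lowest) and above 0 in the shPRSS22 libraries, and the mitochondrial means do the reverse.

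Expression level differs between the sets, so the share of calls among all genes within each set's range of levels is given beside them. Of 3108 genes with a mean CPM in the cytosolic range (71.8 to 844.8), 31.6% were higher and 23.1% lower, with a median log2 fold change of 0.02. Of 10011 genes in the mitochondrial range (6.20 to 195.1 CPM), 21.4% were higher and 20.8% lower, with a median of -0.0034. That range holds most of the 13104 genes tested and is not a close match for level. IARS2 sets its upper end, while EARS2, the next most abundant in CPM, had 55.1 CPM in shCtrl.

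CARS1, the cysteinyl-tRNA synthetase (chromosome 11, 3000922 to 3057613, minus strand of GRCh38), rose most. Its CPM was 279.5, 275.4 and 279.5 for shCtrl and 353.9, 353.3 and 372.8 for shPRSS22. The lowest knockdown library lay far above the highest control library, and the log2 fold change was 0.37 (SE 0.0333, adjusted p = 1.11e-10). WARS1, the tryptophanyl enzyme (chromosome 14, 100333788 to 100376805, minus strand), which is also induced by interferon, had 432.4, 432.8 and 433.8 CPM in shCtrl and 540.4, 539.2 and 576.4 CPM in shPRSS22. Its control libraries were almost equal, and the WARS1 log2 fold change was 0.35 (SE 0.0340, adjusted p = 6.61e-10).

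TARS1, which charges threonine, had 515.3, 504.8 and 532.6 CPM in shCtrl against 632.1, 629.1 and 650.3 CPM in shPRSS22 (log2 fold change 0.30, SE 0.0336). GARS1, whose single gene encodes both the cytosolic and the mitochondrial glycyl enzyme, had 465.5, 471.3 and 473.6 CPM against 576.6, 575.3 and 573.7 CPM (0.29, SE 0.0322). For both genes every knockdown library exceeded every control library by a wide margin. NARS1, the asparaginyl enzyme, had 457.0, 473.5 and 453.4 CPM in shCtrl and 559.5, 538.2 and 560.3 CPM in shPRSS22 (0.26, SE 0.0334). Without overlap between groups, these changes amount to 19.8% for NARS1, 22.4% for GARS1 and 23.1% for TARS1.

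The remaining cytosolic genes that rose did so by less. IARS1, the isoleucyl enzyme, went from 777.0 ± 15.8 to 912.6 ± 24.1 CPM (SD, n = 3; 0.23), and LARS1, the leucyl enzyme that also acts as a leucine sensor for mTORC1, from 403.7, 399.6 and 408.3 to 458.8, 456.6 and 490.6 CPM (0.21). HARS1 (histidine) rose by 0.16, SARS1 (serine) by 0.13, MARS1 (methionine) by 0.10 and YARS1 (tyrosine) by 0.08. In each of these 6 genes the groups did not overlap. YARS1 was the weakest call (adjusted p = 0.0429). Leaving out shCtrl replicate 1, 2 or 3 or shPRSS22 replicate 2 or 3 ended the YARS1 call (adjusted p = 0.0636, 0.18, 0.0709, 0.0714 and 0.0723), and leaving out shCtrl replicate 2 (0.101) or shPRSS22 replicate 1 (0.0745) ended that of MARS1, as did limma on log2(TPM + 1) (0.0522). Exons of MARS1 share 355 bases with exons of DDIT3 on the opposite strand, 5.05% of its exon bases, and DDIT3 rose by 0.52. The counts of MARS1 carried decimals in 0 libraries, so they show no division of reads between these genes. Whether reads there were all given to 1 gene cannot be told from the counts. The part of DDIT3 in the MARS1 value was not tested.

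Not all cytosolic synthetase genes took part. KARS1, the lysyl enzyme, which also serves both compartments from a single gene, fell from 149.4 ± 0.810 to 138.9 ± 5.31 CPM (SE 0.0364 around -0.10, adjusted p = 0.0218). VARS1, the valyl enzyme, fell from 188.4 ± 5.33 to 175.2 ± 2.72 CPM (-0.11, adjusted p = 0.0152). Both are small changes that rest on single libraries. The KARS1 call ended when shCtrl replicate 2 (adjusted p = 0.056) or 3 (0.0728) or shPRSS22 replicate 2 (0.0974) or 3 (0.0663) was left out, in DESeq2 (0.0789) and in limma (0.13). That of VARS1 ended when shCtrl replicate 1 (0.0553) or 2 (0.0926) was left out and in limma (0.0812). QARS1, the glutaminyl enzyme, had -0.09 (adjusted p = 0.0515), with no overlap between groups. AARS1 (alanine), at 718.3, 700.9 and 674.1 CPM in shCtrl and 693.5, 723.4 and 656.5 CPM in shPRSS22, had a log2 fold change of -0.01 (SE 0.0366). EPRS1, the fused glutamyl-prolyl enzyme, had 0.01 (SE 0.0333), RARS1 (arginine) 0.04, and the phenylalanyl subunits FARSA 0.05 and FARSB -0.03; none of these 5 passed, and their groups overlapped.

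The cytosolic genes were next divided by membership of the multi-synthetase complex. Of the 7 cytosolic synthetases in the complex among these genes, 3 rose (IARS1, LARS1 and MARS1), KARS1 fell, and the median log2 fold change was 0.0444. Of the 12 outside it, 8 rose and VARS1 fell, with a median of 0.1445. The shares higher, 42.9% inside and 66.7% outside, stand beside 19.9% of all genes tested and 31.6% of genes at cytosolic levels. The shares lower, 14.3% and 8.33%, stand beside 19.3% and 23.1%. The difference between the subsets was not tested. The scaffold genes AIMP1, at 96.8 ± 1.79 against 93.7 ± 2.23 CPM (-0.05, groups without overlap), and AIMP2, at 32.7 ± 1.16 against 30.9 ± 1.96 CPM (-0.08), did not pass. Exons of AIMP2 share 28.9% of their bases with EIF2AK1 on the opposite strand, and the counts of both scaffold genes carried decimals in all 6 libraries. The third auxiliary protein of the complex, EEF1E1, is not among the 38 genes; it rose from 60.1 ± 0.408 to 79.2 ± 0.833 CPM (0.40, adjusted p = 7.59e-09). XPOT, the tRNA exporter (chromosome 12, 64404350 to 64451127, plus strand), had 404.3, 410.1 and 410.6 CPM in shCtrl and 479.6, 469.0 and 478.2 CPM in shPRSS22. It rose by 0.22 (SE 0.0322, adjusted p = 1.78e-06) and kept its call under all 14 alternatives run.

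By the fold of the catalytic domain, synthetases fall into class I and class II. Of 9 cytosolic class I genes 6 rose and 1 fell, and of 9 cytosolic class II genes 5 rose and 1 fell (EPRS1 holds both folds). Of 9 mitochondrial class I genes 5 fell and of 7 class II genes 3 fell. The cytosolic shares higher, 66.7% and 55.6%, stand beside 19.9% of all genes tested and 31.6% of genes at cytosolic levels. The mitochondrial shares lower, 55.6% and 42.9%, stand beside 19.3% of all genes tested and 20.8% of genes at mitochondrial levels. These are edgeR calls. DESeq2 called 3 mitochondrial genes lower, EARS2 and MARS2 of class I and TARS2 of class II. The difference between classes was not tested.

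Among the mitochondrial genes, TARS2 (threonine; chromosome 1, 150487364 to 150507609, plus strand) was at 19.8, 19.3 and 20.4 CPM for shCtrl and at 16.3, 15.9 and 14.6 CPM for shPRSS22. Its log2 fold change was -0.34 (SE 0.0779, adjusted p = 0.000661), and no knockdown library reached a control library. AARS2 (alanine) had 13.3, 13.1 and 13.3 CPM against 11.5, 9.93 and 9.99 CPM (-0.34, SE 0.0948), and WARS2 (tryptophan) had 10.7, 11.5 and 12.3 CPM against 8.94, 8.87 and 9.60 CPM (-0.33, SE 0.101). Both are scarce mRNAs, with 135 to 202 counts per library, and neither passed in DESeq2 (adjusted p = 0.0511 for AARS2 and 0.0775 for WARS2). The WARS2 call also ended when shCtrl replicate 3 was left out (0.0559).

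MARS2 (methionine; chromosome 2, 197705369 to 197708387, plus strand) had 29.3, 26.2 and 26.4 CPM in shCtrl and 23.0, 21.8 and 21.4 CPM in shPRSS22 (-0.31, SE 0.0682, adjusted p = 0.000523). EARS2, the glutamyl enzyme that in mitochondria also charges the glutamine tRNA before its amidation, was the best measured of those that fell. It had 54.9, 56.0 and 54.5 CPM in shCtrl and 44.7, 46.2 and 45.5 CPM in shPRSS22 (chromosome 16, 23522014 to 23557731, minus strand; -0.28, SE 0.0490, adjusted p = 3.11e-05). EARS2, MARS2 and TARS2 kept their calls under all 14 alternatives run.

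VARS2 (valine) fell by 0.23 on the log2 scale, LARS2 (leucine) by 0.22 and HARS2 (histidine) by 0.17. Each of the 3 rested on single libraries or on the tool. Leaving out shCtrl replicate 1 gave VARS2 a value of -0.15 (adjusted p = 0.18), leaving out shPRSS22 replicate 3 gave -0.21 (0.0526), and neither DESeq2 (0.106) nor limma on log2(TPM + 1) (0.0723) called it. For LARS2 the call ended when shPRSS22 replicate 2 was left out (-0.15, 0.0963), in DESeq2 (0.0769) and in limma (0.0986). For HARS2 it ended when shCtrl replicate 2 (0.0917) or shPRSS22 replicate 3 (0.0686) was left out and in DESeq2 (0.1). In VARS2, 22.0% of exon bases are shared with the neighbouring gene GTF2H4 on the same strand; the VARS2 counts carried decimals in 0 libraries.

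The other 8 mitochondrial genes did not pass, and 6 of them also had values below 0. IARS2 (isoleucine), the most abundant, had 199.1 ± 4.54 CPM in shCtrl and 191.2 ± 5.17 CPM in shPRSS22 (-0.06, SE 0.0344). PARS2 (proline) had -0.11, SARS2 (serine) -0.08, CARS2 (cysteine) -0.04, FARS2 (phenylalanine) -0.04 and RARS2 (arginine) -0.02. NARS2 (asparagine) had 0.01 and YARS2 (tyrosine) 0.07. Their groups overlapped in every case. FARS2 had the fewest counts, 80 to 102 per library, and the largest SE, 0.131. Exons of SARS2 share 46.2% of their bases with an overlapping gene model on the same strand.

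**Figure D3:**
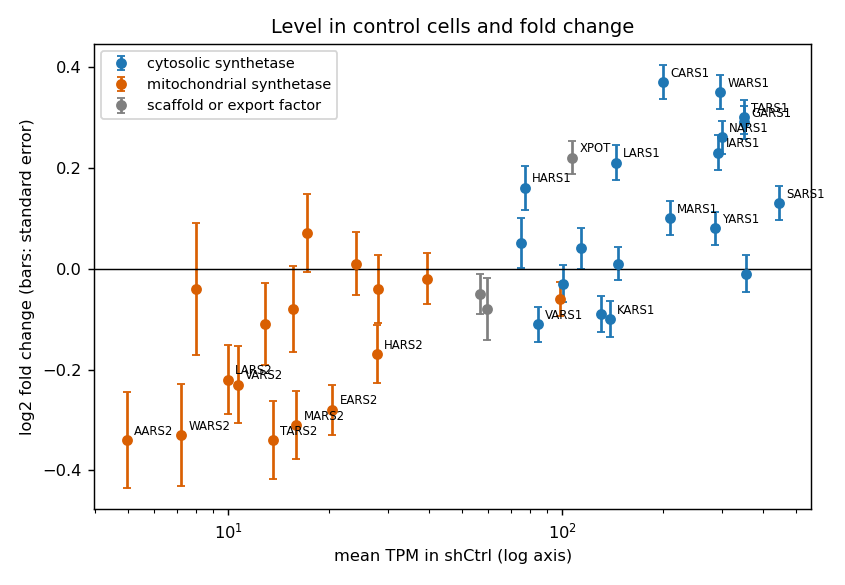
Mean TPM in shCtrl (horizontal, log axis) against the log2 fold change with its standard error for the 38 genes; genes past the threshold are named. The mitochondrial genes sit at lower TPM, from 4.96 to 98.4, and within each set genes of similar level lie on both sides of the threshold, such as TARS1 (348.8 TPM, higher) and AARS1 (355.0 TPM, not called).

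Enzymes for the same amino acid were then set against each other in 17 pairs, with EPRS1 paired with both EARS2 and PARS2 and FARS2 with both FARSA and FARSB. In 12 pairs the cytosolic to mitochondrial ratio, from CPM, was higher in every shPRSS22 library than in every shCtrl library. In 0 pairs it was lower, and in 5 the groups overlapped. For single genes, the groups did not overlap for 48.6% of all genes tested. No such share was computed for ratios of other gene pairs. The ratios use the same values as the gene calls above and are not further evidence. With 3 libraries against 3 an exact two-sided permutation test cannot go below 0.1, which these 12 pairs reached (0.142 after Benjamini-Hochberg adjustment over the 17 pairs). The median change of the log2 ratio was 0.29.

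The pair for tryptophan moved furthest. The TPM of WARS1 was 43.7, 40.7 and 39.1 times that of WARS2 in shCtrl and 64.6, 65.5 and 64.3 times in shPRSS22, and the log2 ratio from CPM changed by 0.68. TARS1 to TARS2 went from 25.4, 25.9 and 25.8 to 37.9, 38.2 and 43.2 (0.65). In both pairs the cytosolic gene rose and the mitochondrial gene fell. AARS1 to AARS2 had the widest gap in level, at 71.7 ± 4.35 in shCtrl and 91.4 ± 9.48 in shPRSS22 (SD, n = 3), where only AARS2 had changed. The ratios of RARS1 to RARS2 (0.07), YARS1 to YARS2 (0.02), FARSA to FARS2 (0.07) and EPRS1 to PARS2 (0.12) overlapped between groups, as did FARSB to FARS2. For NARS1 to NARS2 the groups were apart on the CPM ratio (0.25) but overlapped on the deposited TPM ratio, at 12.5 ± 1.12 and 13.6 ± 1.15; for EPRS1 to PARS2 it was the reverse, with TPM ratios of 11.4 ± 0.732 and 12.5 ± 0.458 that did not overlap.

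**Figure D4:**
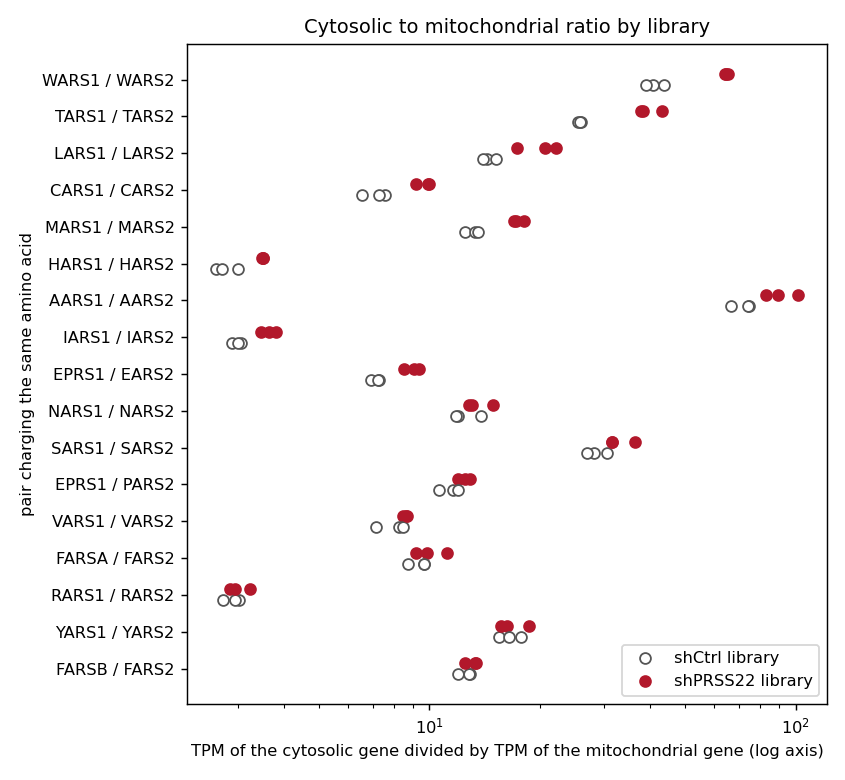
Ratio of cytosolic to mitochondrial TPM (log axis) in each library for 17 pairs charging the same amino acid; open points are shCtrl and filled points shPRSS22 libraries. WARS1 to WARS2 shows the widest separation, 39.1 to 43.7 against 64.3 to 65.5, and the ratios for arginine and tyrosine overlap.

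Both genes of the histidine pair start from 1 divergent promoter. In the RefSeq windows of GRCh38.p14 the first base of HARS1, on the minus strand, and that of HARS2, on the plus strand, have 84 bases between them on chromosome 5, and their 300-base windows share 184 bases. The plus strand of chr5:140691205-140691504, the HARS2 window, is shown with the bases between both starts in capitals.
HARS1 and HARS2: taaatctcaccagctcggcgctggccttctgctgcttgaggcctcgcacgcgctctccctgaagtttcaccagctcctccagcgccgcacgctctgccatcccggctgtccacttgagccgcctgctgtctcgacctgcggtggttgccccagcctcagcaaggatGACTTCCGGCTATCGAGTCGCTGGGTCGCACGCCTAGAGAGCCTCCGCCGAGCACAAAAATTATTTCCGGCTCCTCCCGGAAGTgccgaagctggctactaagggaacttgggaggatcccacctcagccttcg
From this shared start region the mRNAs had fold changes of opposite sign, both called in the edgeR fit. HARS2 was not called in DESeq2 (adjusted p = 0.1) or in the authors' deposited table (q = 0.132). Its call also ended without shCtrl replicate 2 (0.0917) or shPRSS22 replicate 3 (0.0686). HARS1 had 82.7, 77.7 and 76.1 CPM in shCtrl and 90.5, 88.3 and 84.9 CPM in shPRSS22, and rose by 0.16 (SE 0.0435, adjusted p = 0.00441). HARS2 had 36.6, 39.2 and 37.0 CPM in shCtrl and 34.4, 33.5 and 32.0 CPM in shPRSS22, with a log2 fold change of -0.17 (SE 0.0576, adjusted p = 0.0156). Exons of the genes overlap by 437 bases on opposite strands in GENCODE, and HARS1 also shares 221 exon bases with WDR55. Counts of HARS1 carried decimals in 6 libraries and those of HARS2 in 0, so the table shows no division of reads between this pair.

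Promoter windows (250 bases before to 50 after a gene's start, RefSeq, GRCh38.p14) were held for 33 of the 38 genes and were searched on both strands for the C/EBP-ATF response element that ATF4 binds, with the letters TGATGNAA. It occurred in 7 of 16 cytosolic synthetase genes with a window and in 1 of 14 mitochondrial ones, against 4.46% of all 27305 genes with a window. With C at the open position (TGATGCAA) it occurred in 6 cytosolic and 0 mitochondrial genes, against 1.08% of all genes. The cytosolic matches are shown 5′ to 3′ on the gene's strand with 20 bases on either side and the match in capitals; TTGCATCA is the same element read on the other strand.
AARS1: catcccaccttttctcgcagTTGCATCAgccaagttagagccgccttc
CARS1: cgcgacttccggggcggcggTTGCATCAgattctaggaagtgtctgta
GARS1: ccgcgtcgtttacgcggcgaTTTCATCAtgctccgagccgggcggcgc
IARS1: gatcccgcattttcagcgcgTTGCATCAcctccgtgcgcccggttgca
MARS1: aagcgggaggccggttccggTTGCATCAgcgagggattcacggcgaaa
NARS1: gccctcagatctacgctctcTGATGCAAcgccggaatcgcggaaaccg
TARS1: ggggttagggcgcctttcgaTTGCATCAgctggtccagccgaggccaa
In CARS1 (chr11:3057398-3057445), IARS1 (chr9:92293683-92293730), MARS1 (chr12:57488044-57488091), TARS1 (chr5:33440947-33440994) and NARS1 (chr18:57621795-57621842) the element lies within 20 bases of a start. In GARS1 (chr7:30594825-30594872) it begins at position -33 from the first base of the gene, and in AARS1 (chr16:70289666-70289713) at -187.

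Of the 7 cytosolic genes with the element 6 rose, AARS1 being the one that did not. Higher calls made up 19.9% of all genes tested and 31.6% of those at the levels of the cytosolic set. The share among all genes with the element was not computed, and whether the element goes with a rise was not tested. Of the 9 cytosolic genes whose window held no match, 3 rose (HARS1, SARS1 and WARS1) and KARS1 fell, and the windows of LARS1, VARS1 and YARS1 were not analysed here. The mitochondrial gene with a match, YARS2, had a value of 0.07 (SE 0.0772) and did not pass. A match is a description of letters and does not show binding. Of the other elements, CCGGAAG, an ETS site, was found in 9 of 16 cytosolic and 7 of 14 mitochondrial genes (12.2% of all genes). CCAAT was found in 7 and 9 (39.7%), the NRF1 site in 3 and 3 (6.98%) and CACGTG in 1 and 3 (8.77%). For CCAAT and CACGTG the cytosolic share was near that over all genes. The ZNF143 site was found in 0 and 0 (1.21%).

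The genes around the synthetases were taken from lists of the same pathway, whose shares stand beside 19.9% higher and 19.3% lower over all genes tested. Of 16 further genes of tRNA charging, 2 rose (12.5%) and 4 fell (25.0%), with a median log2 fold change of -0.0584. EEF1E1 and QRSL1, a subunit of the mitochondrial amidotransferase that makes glutaminyl-tRNA, rose (0.40 and 0.24). SEPSECS, which completes selenocysteine on its tRNA, fell (-0.22).

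Of 25 genes of RNA polymerase III, which transcribes tRNAs, 6 rose (24.0%) and 1 fell (4.0%; median -0.013): GTF3C4 (0.24) and POLR3E (0.23) were higher and POLR3GL (-0.38) lower. Of 52 genes of tRNA processing and modification 5 rose (9.62%) and 10 fell (19.2%, near the share over all genes; median -0.0207). ADAT2 fell from 37.3 ± 1.34 to 24.1 ± 1.61 CPM (-0.63), while its partner in the tRNA adenosine deaminase, ADAT3, went from 2.32 ± 0.505 to 3.78 ± 0.256 CPM (0.70). OSGEP (-0.53) and LAGE3 (-0.50) fell and TP53RK (0.32) rose, all members of the KEOPS complex that modifies an adenosine next to the anticodon. Of 8 cytosolic elongation factors 2 fell (25.0%) and the rest did not pass; those that fell were EEF1D (-0.14) and EIF5A (-0.08).

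Other parts of mitochondrial translation were mixed. Of 78 mitochondrial ribosomal protein genes 11 rose (14.1%) and 7 fell (8.97%; median 0.0004); MRPL1 (0.26) and MRPL58 (0.23) rose, and MRPL24 (-0.34) and MRPL40 (-0.27) fell. Of 15 mitochondrial translation factors 4 rose (26.7%) and 3 fell, the latter share close to that over all genes (median -0.0324), with the release factors MTRF1L (0.28) and MTRF1 (0.25) higher and GUF1 (-0.29) and the initiation factor MTIF2 (-0.20) lower. Whether the synthetases differ from these lists was not tested.

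Of 25 genes of the ATF4 axis 19 rose (76.0%) and 1 fell (4.0%; median 0.2175); earlier results of these libraries had already shown several of them higher. The mRNA of ATF4 itself, whose activity is set mainly by translation, was at 701.8 CPM in shCtrl and 729.0 CPM in shPRSS22 (0.05, adjusted p = 0.203). CHAC1 and ATF3 rose by 0.70 each, and ATF5 fell (-0.84). Another 16 genes cover the initiation factor eIF2: its kinases and their regulators, its phosphatase subunits, the phosphorylated subunit EIF2S1 and the exchange factor eIF2B. Of these 6 rose (37.5%) and 3 fell (18.8%; median -0.0319). PPP1R15B (0.40) and PPP1R15A (0.33), which direct dephosphorylation of eIF2, rose, as did the kinase EIF2AK3 (0.14), EIF2S1 (0.17) and the exchange factor subunits EIF2B2 (0.22) and EIF2B5 (0.19). The kinase EIF2AK2 (-0.16) fell; IMPACT (-0.36), an inhibitor of the kinase GCN2, and DELE1 (-0.29), which relays mitochondrial stress, did too.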

How the data were processed

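RNA-seq of 6 HCT116 libraries, 3 shCtrl and 3 shPRSS22, was taken from 1 deposited table. Per the submitters' processing notes, the tools were RSEM 1.3.1, HISAT2 2.2.1, DESeq2 1.4.5 and Bowtie2 2.3.4.3 and the build GRCh38.p13, with no roles given. Per the file headers, the authors deposited estimated counts (12.1% to 12.5% of genes carried decimals) and TPM per library, and, for their own comparison, log2 fold changes with p-values and q-values; 20 further columns were not used. Library totals were 14920523 to 15466647 counts.

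Estimated counts were rounded and tested with edgeR 4.0.16 (R 4.3.3; quasi-likelihood F test, TMM, filterByExpr, no covariates), with Benjamini-Hochberg adjustment over 13104 genes and two-sided tests. The fit was also run on simulated counts with the same dispersion for every gene, and its outcome is not used here. CPM uses the TMM-scaled total of tested genes, except for the cell type markers, where it uses the plain total of all genes. SE is the log2 fold change divided by the square root of F. Alternatives were DESeq2 1.42.0, 3 scalings, 2 filters, a replicate block, limma 3.58.1 on log2(TPM + 1) and leaving out each library. The members, lists and tests were chosen with earlier results of these data known. All 38 members are named; from each further list, up to 2 called genes a direction with the largest change (mean CPM 1 or more), and others named beside them were chosen after their values were seen. Gene positions are from GENCODE 29 (GRCh38), exon overlaps count at least 50 bases, and 6 promoter elements were searched. Some members of the further lists are not reported here by name.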

Additional observations from a re-analysis of the deposited data

How the results depend on the processing

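Over 14 alternatives, 10 of the 12 members called higher and 3 of the 10 called lower were called each time (edgeR, limma or DESeq2), and no called member changed sign. Cytosolic genes called lower numbered 2 in the edgeR fit, 3 with upper quartile scaling or library totals alone and 1 in DESeq2. They numbered 0 with limma on log2(TPM + 1) and 0 to 2 when a library was left out. Without GARS1 and KARS1 the number was 1, which follows from taking out KARS1, itself called lower. Mitochondrial genes called lower numbered 8, but 3 in DESeq2, 6 with limma on log2(TPM + 1), and 6 to 8 when a library was left out. The cause was not tested, and no share of all genes was computed for these alternatives. Cytosolic genes called higher numbered 9 to 11 and mitochondrial genes called higher 0 throughout. QARS1 passed as lower with upper quartile scaling (adjusted p = 0.0396), with library totals alone (0.0394), with the replicate block (0.024) and without shPRSS22 replicate 2 (0.0186). YARS1 lost its call with upper quartile scaling (0.0623), library totals alone (0.0505) and no filter (0.0517).

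Same-numbered libraries of both groups correlated at 0.0194, 0.0329 and 0.0908 in their deviations from group means. Libraries of unlike number correlated at -0.115 to 0.0839. The labels do not state what the number stands for, and whether same-numbered libraries were handled together was not tested. With the replicate block 11 cytosolic genes were called higher, 3 lower and 8 mitochondrial genes lower; shPRSS22 replicate 1 correlated best with shCtrl replicate 2 (0.0839), and replicates 2 and 3 each with their own number. Counts per library were 80 to 3056 for the mitochondrial and 1042 to 14401 for the cytosolic genes, with median SEs of 0.0727 and 0.0342.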
